A study of Arabidopsis thaliana with 8 samples.

Results

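RCA (AT2G39730) and Cpn60beta2 (AT3G13470) are nuclear genes of Arabidopsis thaliana whose products work in the chloroplast, and their transcripts were followed in seedling shoots through heat and through loss of HSA32. Both were chosen by gene, with earlier results of these data known: Cpn60beta2 by 1 stated probe set, and RCA by the probe set that the platform annotation pairs with RCA and no other gene. They are 2 of 13350 genes with a probe set of their own in the annotation, and 2 of 22810 probe sets on the ATH1 array, a one-colour microarray on which a probe set reads the transcript of a gene, or of several near-identical genes. Both passed the filter on dim signals that left 15922 probe sets for testing. Each gene had 1 probe set here, and no sequence of either is shown. RefSeq lists 3 transcripts of RCA, and which of them the probe set reads was not given. Cpn60beta1, the close relative of Cpn60beta2, had no probe set paired with it alone, and cross-hybridization was not tested.

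The wild type was ecotype Col-0. The mutant, in Col-0, was the HSA32 (AT4G21320) T-DNA line GABI-268A08, and the knockout was represented by that 1 line. HSA32 encodes a heat-stress-associated protein known in Arabidopsis for sustaining acquired heat tolerance. Shoots of 15-day-old seedlings were harvested directly after 2 h at 37 °C (heat) or 22 °C (control), and each RNA sample came from a pool of about 100 plants. The 4 groups of wild-type control, wild-type heat, knockout control and knockout heat held 2 biological replicates each, 8 arrays in all. One label conflicted: wild-type control replicate 1 is a control by its title but heat-treated by its source field, and the title was used. Values without that array are given for the Cpn60beta2 and RCA heat changes, 22 °C genotype differences and interactions, and for the list genes that passed.

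Rubisco activase, the product of RCA, uses ATP to strip inhibitory sugar phosphates from Rubisco, the enzyme that fixes carbon dioxide. It is known as one of the most heat-labile steps of photosynthesis. The chloroplast chaperonin is a barrel of alpha and beta Cpn60 subunits that closes with a lid of cochaperonins and folds stromal proteins, among them the large subunit of Rubisco. In Arabidopsis, Cpn60beta is known to associate with Rubisco activase during heat stress.

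Signals are given in the linear units the authors deposited, in which every array has a 2% trimmed mean near 500. Across the 8 arrays the median probe set lay at 131.4 to 181.4, with 4 heated arrays at 131.4 to 133.9 and 4 controls at 159.9 to 181.4. The knocked-out gene was read first. HSA32 signal was 657 and 230.0 in wild-type controls, 23175 and 9240 in the heated wild type, 1125 and 1247 in the knockout controls and 378 and 589 in the heated knockout. It was high only in the heated wild-type arrays, although the difference between genotypes after heat did not pass over all probe sets (log2 difference -4.87 ± 0.57, limma adjusted p = 0.23). Where this probe set lies relative to the insertion was not given, so its remaining signal in knockout arrays is no check of the labels. Of 24 light-reaction genes listed as shoot markers, 3 had a probe set of their own (LHCB4.1, LHCB4.2 and LHCB4.3, antenna proteins of photosystem II), and their summed signal ran from 37217 to 73930. Of 15 root markers 3 had one (EXPA7, EXPA18 and PYK10), with summed signals of 3384 and 9504.5 in control arrays and 2176 and 5422 in heated arrays of the wild type, and of 9236.5 and 8137 against 5063 and 5967 in the knockout. Both tested root markers had negative averaged heat changes that did not pass, PYK10 at -0.69 ± 0.39 and EXPA18 at -0.52 ± 0.35 (adjusted p = 0.26 and 0.33), beside a median of -0.24 over all tested probe sets. Their size is near that of the RCA heat change of 0.61, which turns to -0.11 under quantile normalization, and their part in that change was not tested. On every array the summed root marker signal was mostly that of PYK10, from 2095 to 9286.5. EXPA18 was dim, at 23.3 to 144.5, and its replicates in the heated wild type differed 5.17-fold. Of 7 seed and 6 flower markers 0 had one, so those organs could not be checked.

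Cpn60beta2 was strongly raised by heat in both genotypes. Wild-type arrays gave 1087 and 293 at 22 °C against 17189 and 20644 at 37 °C. Knockout arrays gave 185 and 517 at 22 °C against 21289 and 20566 at 37 °C. Every heated array lay far above every control array, and the heated arrays were close to each other while the controls were spread widely. Group means were 690.1 ± 561.7 and 18916 ± 2443 in the wild type and 351.1 ± 234.5 and 20927 ± 511 in the knockout (SD, n = 2). As whole shoots were sampled, a change in the share of a cell type cannot be told apart from a change in RNA per cell.

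**Figure D1:**
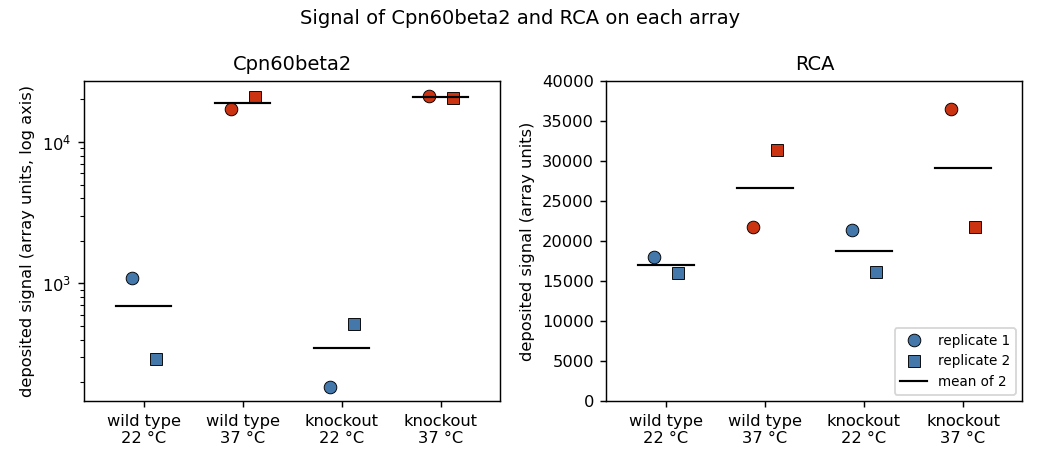
Deposited signal of Cpn60beta2 (left, log axis) and RCA (right, linear axis) on each of the 8 arrays, in array units, by genotype and temperature; circles are replicate 1, squares replicate 2 and lines group means of 2 arrays. Heated Cpn60beta2 signals sit between 17189 and 21289 and controls between 185 and 1087. The RCA signals of heated arrays start at 21718, just above the highest control at 21393. That order holds for deposited signals, while the averaged RCA change is -0.11 ± 0.11 under quantile normalization.

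In the wild type, heat raised Cpn60beta2 by 4.98 ± 0.61 on the log2(signal + 29) scale (SE; 95% interval 3.59 to 6.36), a 31.5-fold change with a limma adjusted p of 0.003. It was 1 of the 2.55% of probe sets that passed in either direction, and 1 of the 1.84% that passed as higher, beside 0.710% as lower. In the knockout the rise was 5.94 ± 0.61 (4.55 to 7.32), 61.3-fold, with adjusted p = 0.00078, where 6.78% of probe sets passed, 3.13% as higher and 3.66% as lower. Averaged over genotypes it was 5.46 ± 0.43 (4.48 to 6.44), 43.9-fold (22.3 to 86.6), with adjusted p = 8.7e-05, where 17.3% passed and 5.24% passed as higher. By size of change Cpn60beta2 stood 60th from the top of 15922 in the wild type and 57th in the knockout. The added constant of 29 understates the changes of dim transcripts.

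The size of the Cpn60beta2 rise rested on its control arrays. Replicates differed 3.71-fold in wild-type controls and 2.79-fold in the knockout controls, against 1.2-fold and 1.04-fold in the heated groups. The higher control signal in the wild type was on replicate 1, the array whose labels conflict. In the knockout controls it was on replicate 2. Without wild-type control replicate 1 the wild-type rise was 58.6-fold, and without wild-type control replicate 2 it was 16.9-fold. The averaged rise was 59.9-fold without wild-type control replicate 1. Without knockout control replicate 1 the knockout rise was 38.4-fold, and without knockout control replicate 2 it was 97.8-fold. The call itself held: over 20 alternatives the adjusted p of the rise ran from 0.00056 to 0.026 in the wild type and from 5.3e-05 to 0.013 in the knockout.

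RCA was read at a high signal on every array, and its heat change was small and did not pass in the main fit. Control arrays of the wild type gave 18061 and 16090, and its heated arrays 21781 and 31410. Knockout arrays gave 21393 and 16146.5 at 22 °C and 36539 and 21718 at 37 °C. All 4 heated arrays lay above all 4 controls in deposited signal, by a narrow margin, though the averaged change is -0.11 ± 0.11 under quantile normalization. Group means were 17076 ± 1394 and 26596 ± 6809 in the wild type and 18770 ± 3710 and 29129 ± 10480.5 in the knockout (SD, n = 2). The replicates of a group differed 1.12-fold and 1.32-fold in the controls and 1.44-fold and 1.68-fold after heat.

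In deposited scaling the heat change of RCA did not pass in either genotype or averaged, without a block or with the replicate number as a block. Its log2 change was 0.62 ± 0.34 in the wild type (95% interval -0.15 to 1.38, 1.53-fold, limma adjusted p = 0.4) and 0.60 ± 0.34 in the knockout (-0.16 to 1.36, 1.51-fold, adjusted p = 0.32). Averaged over genotypes it was 0.61 ± 0.24 (0.07 to 1.15, 1.52-fold), with an unadjusted p of 0.031 and an adjusted p of 0.11, and it exceeded the change of 90.4% of tested probe sets. A crossed block, pairing replicate 1 of one genotype with replicate 2 of the other, was chosen from these same arrays after they had been seen. Under it the averaged change of 0.61 passed (limma adjusted p = 0.032), while those in the wild type (0.16) and the knockout (0.13) did not. Over 19 alternatives the adjusted p of the averaged change ran from 0.032 to 0.58. One array moved these values: the knockout change was 0.22 without knockout heat replicate 1 and 0.97 without knockout heat replicate 2, and the wild-type change was 0.35 without wild-type heat replicate 2 and 0.88 without wild-type heat replicate 1. Averaged, leaving out 1 array gave 0.42 to 0.80. Without wild-type control replicate 1, the array whose labels conflict, RCA was at 0.70 in the wild type (adjusted p = 0.6) and 0.65 averaged (adjusted p = 0.19). The upper bounds of these intervals lie far under the Cpn60beta2 rise in the same arrays. The 2 genes started from different levels, with control signals of 16090 to 21393 for RCA and 185 to 1087 for Cpn60beta2. Whether the top of the signal range limited the RCA change was not tested.

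The sign for RCA depended on how the arrays were scaled. With each array centred on its median, the log2 heat change was 0.87 ± 0.37 in the wild type, 0.90 ± 0.37 in the knockout and 0.89 ± 0.26 averaged (adjusted p = 0.33, 0.21 and 0.059). With quantile normalization, which gives every array the same distribution of values, it was -0.08 ± 0.16, -0.14 ± 0.16 and -0.11 ± 0.11 (adjusted p = 0.88, 0.68 and 0.58). None of these passed, and each quantile-normalized value lies within about 1 SE of 0. Quantile normalization sets a value by its rank on the array, and RCA ranked 36th to 73rd of 22746 non-control probe sets. These ranks ran from 36th to 49th in the controls and from 44th to 73rd after heat, and their part in the sign was not tested. The median of all tested probe sets for the averaged heat change was -0.24 as deposited, 0.04 with median centring and -0.08 with quantile normalization, and RCA lay 0.85 above that median in the deposited values. Cpn60beta2 rose by 5.74 ± 0.42 and 5.31 ± 0.42 averaged under median centring and quantile normalization, and passed under both.

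**Figure D2:**
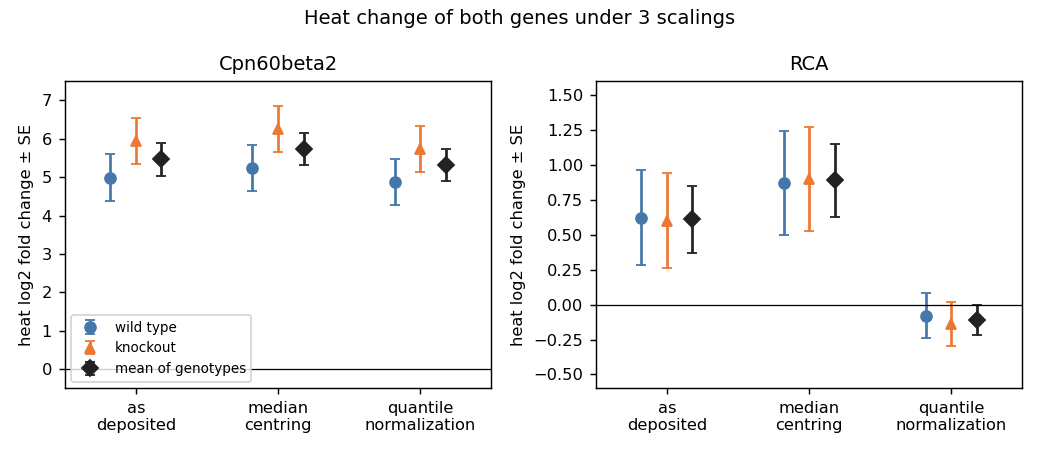
Heat log2 fold change ± SE of Cpn60beta2 (left) and RCA (right) with the deposited scaling, median centring and quantile normalization, for the wild type, the knockout and the mean of genotypes. Cpn60beta2 stays between 4.87 and 6.24; RCA moves from 0.61 averaged as deposited to 0.89 with median centring and -0.11 with quantile normalization.

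The place of the RCA signal lay further from the brightest on heated than on control arrays, except on wild-type heat replicate 2, which overlapped the controls. Among 22746 non-control probe sets it ranked 36th and 47th from the brightest in wild-type controls, 61st and 44th in the heated wild type, 49th and 36th in the knockout controls and 55th and 73rd in the heated knockout. These places describe 1 probe set across arrays and not its transcript level against other genes. The brightest value of an array ran from 21808 to 32188 in the controls and from 33917 to 57211 in the heated arrays, and its part in the RCA values was not tested. Cpn60beta2 ranked 3346th and 8590th in wild-type controls and 10621st and 6315th in the knockout controls, and between 91st and 161st after heat.

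Replicates of RCA were set beside those of the 3 LHCB4 antenna genes. On the log2 scale replicate 1 minus replicate 2 for RCA was 0.17 in wild-type controls, -0.53 in the heated wild type, 0.41 in the knockout controls and 0.75 in the heated knockout. For LHCB4.1 it was 0.03, -0.83, 0.54 and 0.81 in the same order, for LHCB4.2 -0.02, -0.60, 0.56 and 0.68, and for LHCB4.3 -0.25, -1.68, 0.08 and 0.31. The signs matched RCA in the other 3 groups for all 3 genes, but in the wild-type controls LHCB4.2 and LHCB4.3 had the opposite sign. The summed LHCB4 signal was 41648, 41643, 42215, 70311, 54230, 37217, 73930 and 44049.5, listed as control then heat in the wild type and then in the knockout. It was highest on wild-type heat replicate 2 and knockout heat replicate 1, which also had the highest RCA signals, and whether this bears on the RCA values was not tested. For Cpn60beta2 the replicate differences were 1.79, -0.26, -1.35 and 0.05, and so were large in the controls only.

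No difference between knockout and wild type passed for either transcript. None of the 4 genotype comparisons called any probe set (0% of 15922 in each, with 82 at an unadjusted p under 0.05 at 22 °C, 280 after heat, 88 in the interaction and 292 averaged over temperatures). Cpn60beta2 in the knockout against the wild type was -0.81 ± 0.61 at 22 °C (95% interval -2.20 to 0.58) and 0.15 ± 0.61 after heat (-1.23 to 1.54), each with a limma adjusted p of 1. Its interaction, the heat change in the knockout minus that in the wild type, was 0.96 ± 0.86 (-1.0 to 2.92, adjusted p = 1). The difference between the 31.5-fold and 61.3-fold rises did not pass, and its interval covers 0 and allows the knockout's rise to be 0.5 to 7.58 times the wild type's. Without wild-type control replicate 1 the interaction was 0.06, and without wild-type control replicate 2 it was 1.86. Without that first array the difference at 22 °C was 0.09.

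For RCA the knockout minus wild-type difference was 0.12 ± 0.34 at 22 °C (-0.64 to 0.89) and 0.11 ± 0.34 after heat (-0.66 to 0.87). The interaction was -0.02 ± 0.48 (-1.10 to 1.06), and all of these had adjusted p = 1. Without wild-type control replicate 1 the difference at 22 °C was 0.21 and the interaction -0.10. The signs of these small differences turned under other settings, among them -0.00 and -0.07 with quantile normalization at 22 °C and after heat. Intervals of this width allow changes of up to 1.85-fold at 22 °C, so they do not show that the genotypes had equal RCA levels.

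The rest of the pathway was read from 9 lists with 103 loci, of which 29 had a probe set paired with that gene alone and 28 were tested. In each genotype taken alone, 1 of the 28 passed as higher after heat and 0 as lower, and that 1 was Cpn60beta2. Over all tested probe sets 1.84% passed as higher and 0.710% as lower in the wild type, and 3.13% and 3.66% in the knockout. Cpn60beta2 was chosen with earlier results of these data known, so this count is no result about the rest of the pathway. For heat averaged over genotypes 4 of 28 passed as higher and 0 as lower, beside 5.24% and 12.0% of all tested probe sets. Apart from Cpn60beta2, this count rested on single arrays: 1 of 28 passed as higher, Cpn60beta2, when replicate 2 of the wild-type controls, replicate 1 of the knockout controls or replicate 2 of the heated knockout was left out. It was 2 when replicate 2 of the knockout controls was left out, and 7 when replicate 1 of the heated wild type was. Without wild-type control replicate 1 it was 3. Where the tables gave only a locus, its place in a list rests on general knowledge of the pathway, and the locus is given no name here.

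The chloroplast chaperonin list had 4 tested genes of 9, with 2 higher and a median change of 1.08 beside -0.24 over all tested probe sets. Of all tested probe sets 5.24% passed as higher. Of the 2 higher genes, 1 was Cpn60beta2 itself (5.46), chosen with earlier results of these data known. The other tested genes of the list were at 1.54, 0.62 and -0.18. Cpn60beta3, another beta subunit, had signals of 104 and 44.1 in wild-type controls, 482 and 151 in the heated wild type, 127 and 150.2 in the knockout controls and 267 and 693 in the heated knockout. All heated arrays lay above all controls, the closest pair being 151 and 150.2. It rose by 1.54 ± 0.42 averaged (2.91-fold, limma adjusted p = 0.037), but not in the wild type alone (1.62, adjusted p = 0.21) or the knockout alone (1.47, adjusted p = 0.18). The wild-type value was 0.87 without wild-type heat replicate 1 and 2.37 without wild-type heat replicate 2, and the knockout value was 2.11 without knockout heat replicate 1 and 0.82 without knockout heat replicate 2. Under the crossed block, chosen from these same arrays after they had been seen, Cpn60beta3 passed in both genotypes (adjusted p = 0.027 and 0.024). Those calls are therefore no independent support. The averaged call was lost in 6 of 19 alternatives, with an adjusted p of up to 0.12, and was kept without wild-type control replicate 1 (1.76, adjusted p = 0.045). Cpn60beta4, a beta subunit too, had a change of -0.18 ± 0.25 (adjusted p = 0.65). AT3G60210, the other locus of the list, was at 0.62 ± 0.21 (adjusted p = 0.079). It was called higher for averaged heat with median centring and with the crossed block. The alpha subunits and Cpn60beta1 had no probe set of their own here and were not analysed.

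**Figure D3:**
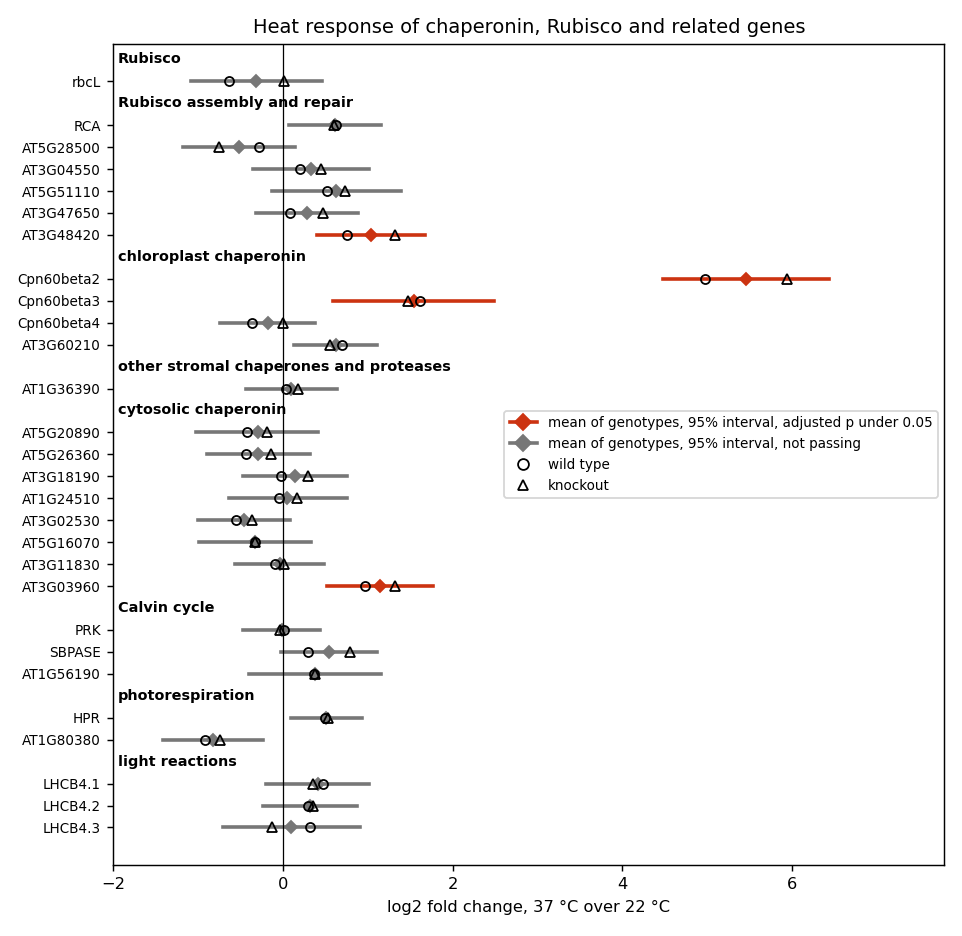
Log2 fold change of heat over control for the 28 tested genes of the pathway lists: diamonds and bars are the mean of genotypes with its 95% interval (red where adjusted p is under 0.05, grey otherwise), circles the wild type, triangles the knockout. Cpn60beta2 at 5.46 stands far to the right of the next genes, Cpn60beta3 at 1.54, AT3G03960 at 1.14 and AT3G48420 at 1.04; RCA at 0.61, as deposited, turns to -0.11 under quantile normalization.

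Among genes for Rubisco and its assembly and repair, 7 of 13 loci were tested. The gene of the large subunit, rbcL, is encoded in the chloroplast genome, and its signals were 480 and 726 in wild-type controls, 260.5 and 514.5 in the heated wild type, 511 and 1015 in the knockout controls and 563.5 and 937 in the heated knockout. Heated and control arrays overlapped, and its averaged change was -0.32 ± 0.34 (adjusted p = 0.56). The chloroplast-encoded genes atpB and psbF read far brighter, at 19271 to 39197 and 15256 to 34777. How well the rbcL probe set reads its transcript was not tested. The assembly and repair list, which holds RCA, had 6 tested genes with 1 higher and a median of 0.47. AT3G48420 had signals of 1459 and 2014 in wild-type controls, 2019 and 4221 in the heated wild type, 1899 and 2028 in the knockout controls and 4700 and 5220.5 in the heated knockout. The groups overlapped, since wild-type heat replicate 1 at 2019 lay below knockout control replicate 2 at 2028. It rose by 1.04 ± 0.28 averaged (2.06-fold, adjusted p = 0.037), a call lost in 8 of 19 alternatives, with an adjusted p of up to 0.11. It was lost with quantile normalization and without any 1 of 7 arrays, among them wild-type control replicate 1 (0.93, adjusted p = 0.11), and kept without wild-type heat replicate 1. The other 4 were AT5G51110 at 0.63, AT3G04550 at 0.33, AT3G47650 at 0.28 and AT5G28500 at -0.52, and none passed in the main fit.

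The cytosolic chaperonin, a relative of Cpn60 outside the chloroplast, had 8 of 9 loci tested. Of these only AT3G03960 passed, with signals of 611 and 519 in wild-type controls, 1183 and 1074 in the heated wild type, 417 and 745.5 in the knockout controls and 1154 and 1793 in the heated knockout. All heated arrays lay above all controls. It rose by 1.14 ± 0.27 averaged (2.21-fold, adjusted p = 0.024), while in the wild type alone (0.97, adjusted p = 0.26) and the knockout alone (1.32, adjusted p = 0.081) it did not pass. The call was lost in 3 of 19 alternatives, the ones that left out replicate 2 of the wild-type controls, replicate 1 of the knockout controls or replicate 2 of the heated knockout, and was kept without wild-type control replicate 1 (1.2, adjusted p = 0.049). The other 7 ranged from -0.46 (AT3G02530) to 0.14 (AT3G18190), and the list median was -0.17. Of the mitochondrial chaperonin list, 1 of 5 loci had a probe set, AT1G23100, which was too dim to be tested.

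None of the 9 tested genes of the remaining lists passed in the main fit, and some were called under alternatives. HPR was called higher for averaged heat with median centring and with the crossed block, which was chosen after the data had been seen. SBPASE and PRK, which regenerate the Rubisco substrate in the Calvin cycle, were at 0.54 ± 0.25 (adjusted p = 0.17) and -0.01 ± 0.20 (adjusted p = 0.97), and AT1G56190 was at 0.38. HPR, the hydroxypyruvate reductase of photorespiration, was at 0.51 ± 0.18 (adjusted p = 0.087), with 13413 to 17898 in the controls and 18981 to 23022 in the heated arrays. AT1G80380, on the photorespiration list too, was at -0.83 ± 0.26 (adjusted p = 0.061). The antenna genes LHCB4.1, LHCB4.2 and LHCB4.3 were at 0.41, 0.32 and 0.10. Among other stromal chaperones and proteases, 1 of 11 loci was tested, AT1G36390 at 0.10.

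Likeness to each gene was measured by Pearson's r over the log2 values of the 8 arrays, across 8792 tested probe sets paired with 1 gene. These arrays share the heat contrast and each array's scaling, so r is a description with no test. For Cpn60beta2 the most alike were Hop3 (r = 0.995), AT3G12050 (0.994), SGT1A (0.994), AT2G20720 (0.992) and AT1G16040 (0.992). Hop3 is a cochaperone that links HSP70 and HSP90, and SGT1A a cochaperone of HSP90. Hop3 signals were 248 and 64.3 in wild-type controls, 17810 and 15549 in the heated wild type, 36.1 and 81.9 in the knockout controls and 20842 and 19552 in the heated knockout. SGT1A signals were 1489 and 565 in wild-type controls, 15667 and 13710 in the heated wild type, 634 and 747 in the knockout controls and 18138 and 15577 in the heated knockout. Both were higher on wild-type control replicate 1 than on replicate 2, as Cpn60beta2 was, and lower on knockout control replicate 1 than on replicate 2. The most opposed were AT5G42090 (r = -0.996), OCT4 (-0.994), DER2.2 (-0.994), AT2G34050 (-0.992) and AT3G62630 (-0.992). AT2G20720 was dim at 22 °C, at 34.5 and 6.2 in the wild type and 8.3 and 13.2 in the knockout. All but the first of these lay under the added constant. AT2G34050 lay under that constant on every heated array, at 19.2 and 24.8 in the wild type and 17.6 and 12.9 in the knockout. How far the constant set the r of these genes was not tested. In all, 269 probe sets had r above 0.9 and 507 below -0.9, so a high r was common, and the median was -0.33.

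**Figure D4:**
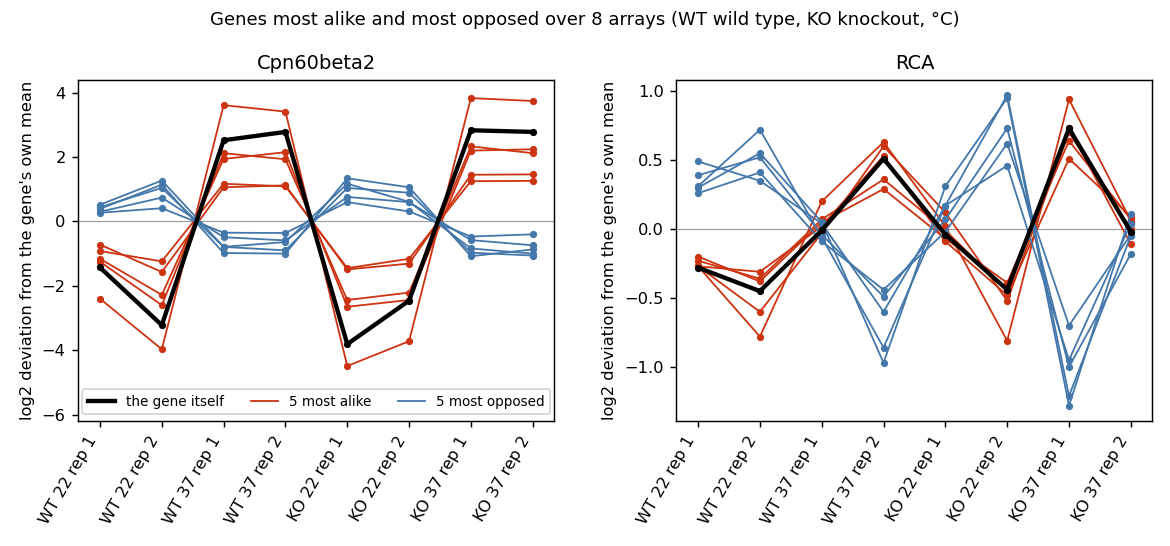
Log2 value on each of the 8 arrays, as deviation from the gene's own mean, for Cpn60beta2 (left) and RCA (right) with the 5 most alike (red) and 5 most opposed (blue) genes by Pearson's r. Cpn60beta2 and its likes fall into a low control and a high heat level. RCA and its likes peak on wild-type heat replicate 2 (0.51 for RCA) and knockout heat replicate 1 (0.73). These are deposited values, and the averaged RCA heat change is -0.11 ± 0.11 under quantile normalization.

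For RCA the most alike were DI21 (r = 0.982), psbF (0.982), atpB (0.981), AT4G01150 (0.973) and AT3G05730 (0.971). Of these psbF, a cytochrome subunit of photosystem II, and atpB, the beta subunit of the chloroplast ATP synthase, are encoded in the chloroplast genome, unlike RCA. The psbF signals were 17777 and 16290 in wild-type controls, 21971 and 26880 in the heated wild type, 20801 and 15256 in the knockout controls and 34777 and 19359 in the heated knockout. None of these 5 passed for heat, with averaged changes from 0.52 for atpB to 0.92 for AT3G05730. The most opposed were AT2G28390 (r = -0.986), AT5G66060 (-0.978), MDH (-0.977), AT4G24550 (-0.976) and AT1G20370 (-0.976). AT1G20370 was at 28.8 on wild-type heat replicate 2 and 17.7 on knockout heat replicate 1, under the constant of 29. With r above 0.9 for 77 probe sets and below -0.9 for 294, the median was -0.29. RCA and Cpn60beta2 had r = 0.726 with each other, and both were higher after heat in deposited signal. Within the groups their replicate differences had the same sign in the wild type and in the heated knockout and opposite signs in the knockout controls. The averaged RCA heat change is -0.11 ± 0.11 under quantile normalization.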

How the data were processed

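Biotin-labelled total RNA was hybridised to 8 one-colour arrays. The authors deposited 1 linear intensity per probe set and array; the trimmed means ran from 500.04 to 500.07. Which software made these values the sources used here do not give; without detection calls, background was judged from signal level alone. Replicates were separate pools, per the labels' titles and the series design. Left out of the 22810 probe sets were 64 controls and, by mean signal, the dimmest 30% (61.7 or lower). Values were analysed as log2(intensity + 29), 29 being the 20th percentile of the table, and a mean per group was fitted over all 8 arrays with limma 3.58.1 under R 4.3.3, using a variance trend. All p-values are two-sided and were adjusted by Benjamini-Hochberg over 15922 probe sets, with a threshold of 0.05. The fitting code was tested on simulated data. The number of arrays limits the precision.

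In the annotation 13513 probe sets had a single gene, 503 several, and 8730 were unnamed here. Symbols came from a RefSeq table that lacked 77 of the gene numbers; no genome build was named, so no coordinates are given. The genes, lists and tests were chosen with earlier results of these data known. Named are both genes, list genes that passed, up to 4 more per list by smallest adjusted p for averaged heat, and the 5 most alike and most opposed by r; AT3G47650 and AT3G18190 were added after their values were seen. Where several probe sets read 1 gene the brightest was used. Alternatives were the scaling, the constant (7.25 or 116), the filter (none or 50%), fewer arrays and replicate blocks. Same-numbered replicates deviated together within a genotype (r = 0.542 and 0.524) but oppositely across genotypes (-0.241 to -0.389). The main fit took no pairing from the numbers. The opposite signs across genotypes do not speak to pairing of control with heat arrays within a genotype. A separate block for each genotype was not fitted.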

Additional observations from a re-analysis of the deposited data

How the results depend on the processing

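Cpn60beta2 rose and passed under every alternative run for heat (20 in each genotype, 19 averaged): its log2 change ran from 4.08 to 6.0 in the wild type, 5.26 to 6.61 in the knockout and 5.01 to 5.97 averaged. The RCA heat change turned negative with quantile normalization (-0.08 in the wild type, -0.14 in the knockout, -0.11 averaged), as did its genotype differences (-0.00 at 22 °C, -0.07 after heat, -0.03 averaged); its interaction was 0.03 with median centring. Leaving out 1 array, chosen in turn, gave RCA genotype differences of -0.08 to 0.33 at 22 °C, -0.27 to 0.48 after heat and -0.07 to 0.30 averaged, and an interaction of -0.39 to 0.36; for Cpn60beta2 the difference was -1.71 to 0.09 at 22 °C and -0.78 to 0.12 averaged, and the interaction 0.06 to 1.86. Without both arrays of wild-type replicate 1, Cpn60beta2 had 0.09 at 22 °C, -0.07 in the interaction and 0.05 averaged, and RCA -0.16 after heat. None of these genotype values passed, and the causes were not tested. With the replicate number as a replicate block, Cpn60beta2 was at 4.98 (adjusted p = 0.013) and 5.94 (0.0045) and averaged RCA at 0.61 (0.14), which changed no call of either gene. A crossed replicate block, chosen after the data had been seen, made the averaged RCA change pass (0.61, adjusted p = 0.032). List genes called higher for averaged heat numbered 4 of 28, and 1 to 7 with 1 array left out, 6 with median centring, 3 with quantile normalization, 5 without both arrays of wild-type replicate 1 and 7 with the crossed block; in the knockout 1 became 2 with either scaling, 1 to 2 with 1 array left out, 3 without both arrays, and 4 with the crossed block or only the 4 arrays compared; in the wild type 1 became 2 with the crossed block. For averaged heat 1 of 28 list genes was called lower under settings that included quantile normalization and the crossed block. List counts under alternatives were added after the data had been seen. Calls for heat over all probe sets moved from 406 to between 160 and 1314 (1 array left out), 155 (only the 4 arrays compared), 878 (both arrays of wild-type replicate 1 out) and 1406 (crossed) in the wild type; from 1080 to between 230 and 2000, 2433, 2424, 2858 and, with the replicate block, 675 in the knockout; and from 2751 to between 1176 and 4203, and 5156 (crossed) averaged. For knockout against wild type after heat and for the interaction, 0 became 1 in each of the last 2 settings, crossed block and both arrays out. Of calls for averaged heat 30.4% were higher as deposited, 47.3% with quantile normalization and 59% with median centring; in the knockout 46.1%, 62% and 73.2%; in the wild type 72.2%, 76.1% and 87.2%. No detection calls were used, so how far the control signals of Cpn60beta2 stood over background was not tested.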
